A study of Mus musculus with 8 samples.

Results

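A set of 1005 genomic regions carried a peak of 5-hydroxymethylcytosine (5hmC) on every sampled day of OySyNyK reprogramming and in no other library of the study. They are called OySyNyK-only regions here. To find them, the peaks of all 8 lists were merged wherever they overlapped or touched, which gave 222732 union regions. A union region was kept when it held a peak at OySyNyK D1, D3 and D5 and none at OSNK D1, D3 or D5, in induced pluripotent stem cells (iPSC) or in mouse embryonic fibroblasts (MEF). The kept regions were 0.451% of all union regions and 2.92% of the 34378 that were present on all 3 OySyNyK days. Membership was thus chosen from the peak calls themselves, so presence, absence, score and width are descriptions here and carry no test.

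The libraries were OySyNyK at D1, D3 and D5, OSNK at D1, D3 and D5, iPSC, and MEF, with 1 library each and no replicates. The starting cells were OG2-MEFs, which are known as fibroblasts carrying a green fluorescent reporter of Oct4. OSNK stands, from general knowledge of the study, for Oct4, Sox2, Nanog and Klf4. In OySyNyK the Oct4, Sox2 and Nanog proteins are fused to a transactivation domain of the co-activator YAP. The medium for making iPSC contained vitamin C and LIF with either method. The iPSC library came from OySyNyK cells, going by its title. Established iPSC were kept on mitomycin-treated MEF feeder cells. Whether the feeders were removed before capture, how the factors were delivered and whether cells were sorted is not given in the sources used here.

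5hmC is made from 5-methylcytosine by the TET dioxygenases, whose activity vitamin C is known to raise. It is a step on the way to unmethylated cytosine and also a lasting mark, found mainly at enhancers and in the bodies of active genes. In reprogramming, somatic enhancers lose their activity while those of the pluripotent state gain it, and some elements are open only in between. All libraries came from bulk cultures, in which a mark on fewer cells and less of it per cell cannot be told apart. The lists are in a mouse assembly other than the GRCm38 annotation at hand, so no region was assigned to a gene and no sequence is shown. Coordinates are those of the lists, counted from 1.

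Peak numbers lay between 70592 and 100951 in the OySyNyK lists and between 89497 and 116302 in the OSNK lists, against 54938 in iPSC and 65776 in MEF. Together the OySyNyK days held 265237 peaks and the OSNK days 298561. Sequencing depth is unknown. Each peak has a score, in MACS -10 times the log10 of its p-value, and the lowest score was 50 in every list. A region listed without a peak may therefore still hold 5hmC below that limit.

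Most regions present throughout OySyNyK were also found with OSNK or in an end state. Of the 34378 regions present on all 3 OySyNyK days, 19187 (55.8%) had a MEF peak and 11434 (33.3%) an iPSC peak. The 10904 (31.7%) in neither end state were then sorted by their presence with OSNK. Of these, 6075 (55.7%) were present on all 3 OSNK days, 2364 (21.7%) on 2 days, 1460 (13.4%) on 1 day and 1005 (9.22%) on none. The last are the OySyNyK-only regions. Exchanging the methods gave 3717 OSNK-only regions, which were 1.67% of all union regions and 8.44% of the 44056 present on all 3 OSNK days. Among the 18581 regions of all 3 OSNK days that lay in neither end state, they made up 20.0%. OSNK-only regions were thus 3.70 times as many as OySyNyK-only regions. With the 54938 best-scoring peaks of every list the numbers were 594 OySyNyK-only and 1509 OSNK-only regions, a ratio of 2.54. With a score of at least 100 asked on the 3 days and the other lists left whole, they were 25 and 350, a ratio of 14.0.

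**Figure D1:**
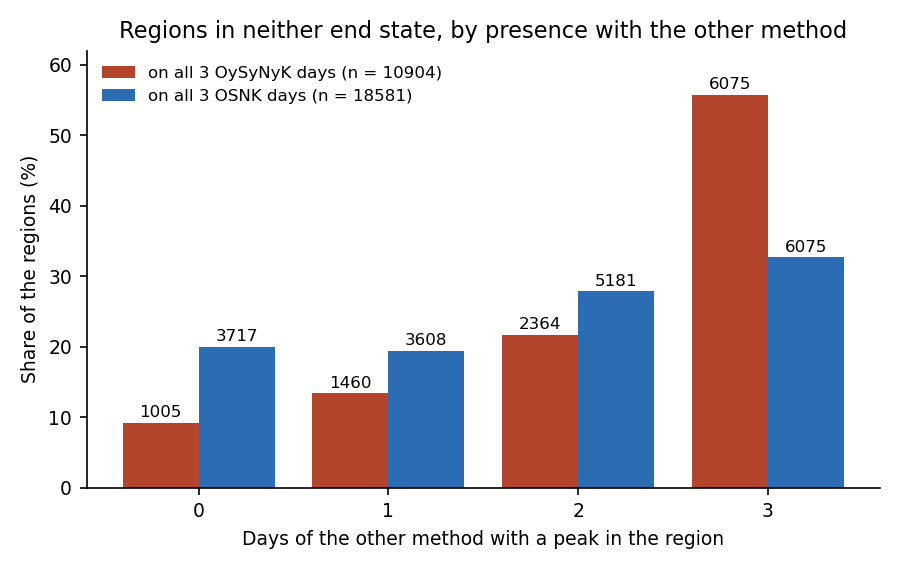
Regions in neither MEF nor iPSC and present on all 3 days of OySyNyK (red, n = 10904) or OSNK (blue, n = 18581), by the number of days of the other method with a peak there. Bars give the share of regions in percent and the numbers above them give regions. The leftmost pair holds the 1005 OySyNyK-only and the 3717 OSNK-only regions.

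The choice of score limit decided which regions were members. With peaks of score 100 or more only, in all 8 lists, 400 regions met the rule, and 25 of them (6.25%) were among the 1005. Those 25 were 2.49% of the original set. With equal numbers of best-scoring peaks, 149 of 594 were among the original regions (25.1%), which is 14.8% of the 1005. In contrast, 988 (98.3%) were found again when each peak was replaced by 500 bp round its midpoint. The regions described here are thus those with no listed peak of any strength elsewhere, and not those with the strongest OySyNyK signal.

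Among regions exclusive to a method, the share with an iPSC peak was larger for OySyNyK than for OSNK, a difference that 1 library per group cannot test. Present on all 3 OySyNyK days and on no OSNK day were 1812 regions, of which 455 (25.1%) had an iPSC and no MEF peak, 197 (10.9%) a MEF and no iPSC peak, and 155 (8.55%) both. The 1005 without either were 55.5% of them. With the methods exchanged there were 4263 regions, of which 228 (5.35%) had an iPSC and no MEF peak, 284 (6.66%) a MEF and no iPSC peak, and 34 (0.798%) both. There, 87.2% had neither. The OSNK lists removed regions in the first case and the OySyNyK lists in the second. The OySyNyK lists held fewer peaks than the OSNK lists at D1 and D5 and more at D3 (93694 with OySyNyK and 89497 with OSNK), and the part of list length in this was not tested. Among all regions present on the 3 days of a method, 33.3% had an iPSC peak with OySyNyK and 23.0% with OSNK. The 25.1% and 8.55% of the regions exclusive to OySyNyK are together close to that share. The 5.35% and 0.798% of those exclusive to OSNK are together far below it.

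Presence on all 3 days was the exception among regions seen with OySyNyK alone. In all, 27646 regions had a peak on at least 1 OySyNyK day and none in the other 5 lists. D1 only held 6408 of them, D3 only 8418 and D5 only 7011. D1 and D3 together held 1764, D3 and D5 together 2562, and D1 and D5 without D3 478. The 1005 OySyNyK-only regions were 3.64% of the total. With OSNK the corresponding share was 8.05%, 3717 of 46152. Regions seen on more days had higher scores and were wider. The median of each region's highest score was 98.0 in the OySyNyK-only regions, against 60.3, 60.6 and 59.6 in those of D1, D3 and D5 only. Their median width was 801 bp, against 493, 526 and 554 bp. Regions of more days hold more peaks by construction, and the part of this in both differences was not tested.

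The peaks of the OySyNyK-only regions were weak to middling within their own libraries. Their scores had a median of 69.1 at D1 (lowest 50.1, highest 327), 82.0 at D3 (50.2 to 326) and 69.8 at D5 (50.04 to 227). All peaks of those lists had medians of 95.8, 84.2 and 75.8. The score of the median region thus exceeded 28.1%, 48.0% and 42.3% of the peaks of its list at D1, D3 and D5, and it ranked lowest within the D1 list. A score of 100 or more was reached by 168 regions at D1 (16.7%), 306 at D3 (30.4%) and 168 at D5 (16.7%), against 47.5%, 38.6% and 30.6% of all peaks of the lists. In OSNK-only regions the medians were 94.4, 92.6 and 75.7, and they exceeded 44.4%, 50.9% and 44.5% of the peaks of the OSNK lists. Across regions the OySyNyK scores of different days were only loosely related. Spearman's rho over the 1005 regions was 0.18 for D1 and D3, 0.23 for D3 and D5 and 0.084 for D1 and D5, against 0.57, 0.59 and 0.35 over the 34378 regions of all 3 days, whose scores span a wider range.

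**Figure D2:**
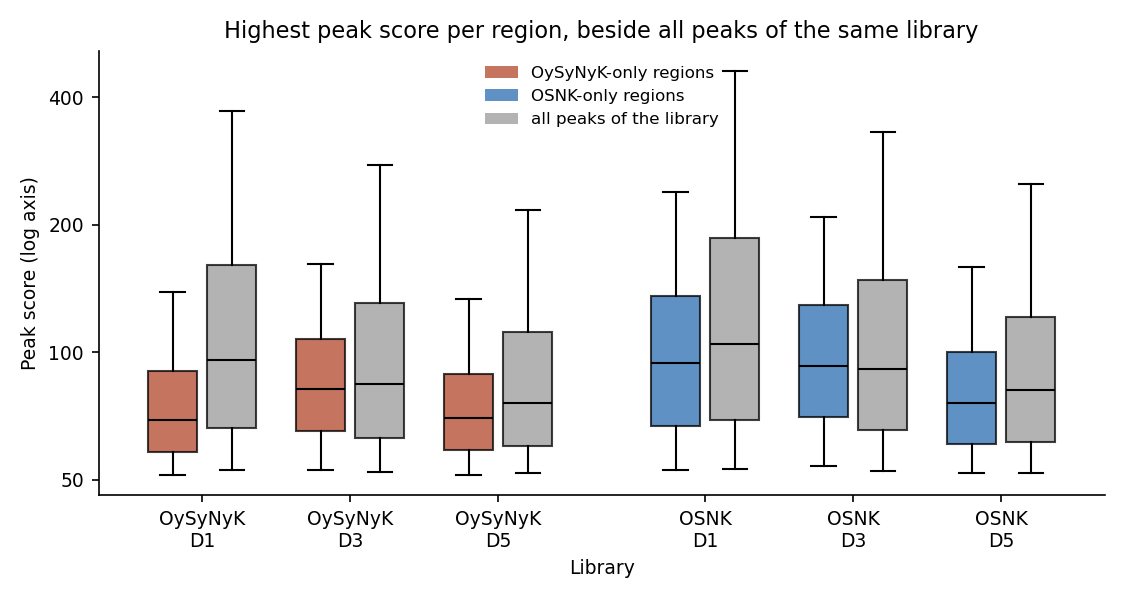
Highest peak score per region (log axis) in each library for OySyNyK-only regions (red) and OSNK-only regions (blue), beside all peaks of the same library (grey). Boxes span the quartiles, the line is the median and whiskers reach the 5th and 95th percentile. The red median of 69.1 at OySyNyK D1 lies below the library's 95.8, while at D3 the medians are 82.0 and 84.2.

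D3 was most often the highest day. The score was highest at D3 in 461 regions (45.9%), at D1 in 272 and at D5 in 272. It was lowest at D5 in 419, at D1 in 387 and at D3 in 199. The median log2 ratio of the D3 to the D1 score was 0.18, and 626 regions (62.3%) were higher at D3. The median for D5 against D3 was -0.19. Over all regions present on the 3 OySyNyK days these medians were -0.19 and -0.45, and the medians of the whole lists differed by -0.19 and -0.15 on the log2 scale.

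As a group, the OySyNyK-only regions had about equal scores at D5 and D1, while all regions of the 3 OySyNyK days together had lower scores at D5. The median log2 ratio of the D5 to the D1 score was -0.01 in the 1005 regions (quartiles -0.38 and 0.36) and -0.63 in the 34378. At D5 the score was at least 2-fold higher than at D1 in 45 of the 1005 (4.48%), against 4.38% of the 34378. It was at least 2-fold lower in 53 (5.27%), against 36.5% of the 34378. With a peak required on both days, only regions with a D1 score of at least 100 can show such a fall. Of these, it was found in 53 of 168 OySyNyK-only regions (31.5%) and in 12534 of 24403 of all those present (51.4%). A 2-fold rise likewise needs a D5 score of at least 100. Of regions with such a score, 45 of 168 OySyNyK-only regions rose (26.8%), and 1506 of 15991 of all those present (9.42%). The members had lower scores than the 34378 to begin with. Within regions whose mean score over the days was 80 to 100, the median was 0.07 in 283 OySyNyK-only regions and -0.31 in 5296 of all those present. For mean scores of 100 to 150 it was -0.12 in 152 and -0.65 in 10270, and for 60 to 80 it was -0.03 in 476 and -0.11 in 3958. With the best-scoring 54938 peaks of each list, which share 149 regions with the original set, the median in OySyNyK-only regions was -0.54.

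**Figure D3:**
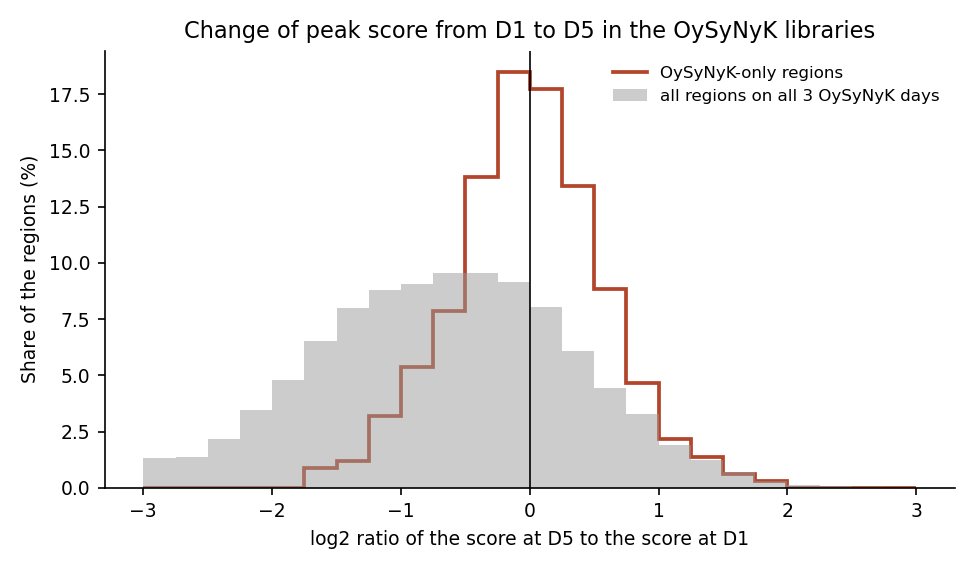
Distribution of the log2 ratio of the D5 to the D1 score in the OySyNyK libraries, for the 1005 OySyNyK-only regions (red line) and all 34378 regions present on the 3 OySyNyK days (grey), as shares of regions in bins of 0.25; values beyond 3 are in the end bins. The red distribution is centred at -0.01 and the grey one at -0.63.

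The strongest OySyNyK-only regions had scores above 100 on every day, and there were 25 of them (2.49%), on 13 chromosomes. In OSNK-only regions this was reached by 350 (9.42%). At the other end, 533 of the 1005 (53.0%) reached 100 on no day. The median scores of the 25 were 141, 155 and 114 at D1, D3 and D5, and their widths lay between 598 and 1874 bp. The top of the list was chr5:36275394-36276338, 945 bp long, with scores of 224 at D1, 229 at D3 and 156 at D5. An OSNK D1 peak lay 456 bp away from it. Next came chr18:57446839-57447906 with 170, 185 and 154, where the nearest peak of the other 5 lists was 3928 bp away. The score of chr1:157854047-157854858 was 213, 195 and 150, and that region had peaks of all 3 OSNK days between 525 and 567 bp away.

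Several strong regions bordered on peaks of an end state. An iPSC peak began 96 bp from chr10:80539201-80540536, whose scores were 246, 180 and 148. At chr7:125983525-125985347, with scores of 155, 177 and 141, a MEF peak lay 21 bp away. In contrast, chr17:27010025-27011304 was far from both end states, 46563 bp from iPSC and 12806 bp from MEF. Its scores were 119, 119 and 129, the most even of the 10 strongest. The other 4 of these 10 were chr8:24214739-24216150, chr11:49952726-49953868, chr3:90075617-90077090 and chr1:192788483-192789846, with lowest scores between 124 and 127. Of the 25 strong regions, 18 had an iPSC peak and 17 a MEF peak within 10 kb, and 6 had an OSNK peak within 1 kb. Over all 1005 regions the corresponding numbers were 624 (62.1%), 651 (64.8%) and 299 (29.8%).

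Most OySyNyK-only regions were 3 overlapping peaks of ordinary size. Exactly 3 peaks made up 982 of them (97.7%). Their width had a median of 801 bp (quartiles 655 and 1036 bp), a minimum of 335 and a maximum of 3109 bp, and only 7 reached 2 kb. OSNK-only regions had a median of 918 bp, and 113 of these reached 2 kb. All regions present on the 3 OySyNyK days had a median of 1417 bp, and all union regions had one of 775 bp. Regions of the 3 days can also hold merged peaks of the other lists, which the rule bars in members. The part of this merging in the difference between 801 and 1417 bp was not tested. Together the 1005 regions covered 0.891 Mb. At least 1 base was covered on all 3 days in 986 regions (98.1%), and in the other 19 the days were only chained by neighbouring peaks. The stretch common to the 3 days had a median of 486 bp, and a median of 63.3% of the region. The midpoints of the best peaks of the days lay within a median of 102.5 bp of each other. Scores were higher in wider regions: in the 251 narrowest regions, under 655 bp, the median D3 score was 71.6, and in the 252 widest, from 1036 bp, it was 100.3.

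The longest stretches marked on all 3 days were between 1255 and 1382 bp. In chr5:36006418-36008102, 1382 bp were covered throughout, with scores of 90.6, 170 and 118. In chr16:91591983-91593639 it was 1360 bp at scores of 67.1, 64.7 and 112. The region chr6:88686427-88687923 had 1299 bp, chr2:93282834-93285137 had 1264 bp spread over 7 peaks, and chr6:125598296-125599722 had 1255 bp.

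Single regions differed between days far more than the group, and none of these differences could be tested. The largest rise was at chr11:101934546-101936154, which had scores of 51.4 at D1, 282 at D3 and 201 at D5, a log2 ratio of 1.97 from D1 to D5. Its covered length was 1091, 1609 and 1349 bp on these days. Rises of 1.83 and 1.81 were found at chr13:12591100-12592500 and chr10:76679324-76681061, with D5 scores of 196 and 205. They differed in the day of the maximum: the score of chr13:12591100-12592500 was higher at D5 than at D3, where it was 141, and that of chr10:76679324-76681061 was higher at D3, with 223. The other large rises were at chr2:118256329-118257068 and chr11:98737896-98738969. All 5 had D1 scores between 51.4 and 58.6, close to the limit of calling.

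The largest falls began from some of the highest D1 scores of the set. The highest of all was 327, at chr7:16697906-16699688, which had 167 at D3 and 104 at D5, a log2 ratio of -1.66. At chr4:43294921-43295767 the scores were 203, 63.8 and 62.1, so that most of the fall was complete by D3. At chr3:151995307-151997070 they were 185, 111 and 57.2, a fall in steps. The remaining falls were at chr9:56633680-56634835, with 174, 67.7 and 55.1, and chr4:154990727-154991616, with 159, 125 and 51.8. All 5 kept a peak at D5, which the rule requires, so regions that fell further are not in the set.

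Peaks of the other lists were near, and the rule bars any that touch or overlap. The nearest other union region of any kind lay a median of 1062 bp from OySyNyK-only regions, against 1200 bp over all union regions. The nearest OSNK peak of any day was a median of 2169 bp away (quartiles 775 and 5420 bp). It was within 1 kb in 299 of the 1005 regions (29.8%, 95% interval 26.9 to 32.7) and within 10 kb in 875 (87.1%). Within 100 bp there was an OSNK peak at 40 regions. The nearest peak of any of the 5 absent lists was an OSNK D3 peak in 252 regions, an iPSC peak in 234, an OSNK D1 peak in 199, a MEF peak in 172 and an OSNK D5 peak in 148. With the methods exchanged, an OySyNyK peak lay within 1 kb of 860 of the 3717 OSNK-only regions (23.1%) and within 10 kb of 75.7%. Intervals are exact binomial ones. They cover counting error only, and neighbouring regions are not independent. Around the OySyNyK-only regions, a median of 19 other union regions had their midpoints within 50 kb, against 15 for OSNK-only regions, 21 for regions of both methods in neither end state and 17 for all union regions.

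OySyNyK-only regions lay closer to iPSC peaks than OSNK-only regions did, although neither overlapped any. An iPSC peak was within 10 kb of 624 of the 1005 OySyNyK-only regions (62.1%, 95% interval 59.0 to 65.1), against 1289 of the 3717 OSNK-only regions (34.7%, 33.1 to 36.2). The median distance was 6047 bp against 18367 bp. MEF peaks were also nearer, within 10 kb of 64.8% (61.7 to 67.7) against 52.7% (51.1 to 54.3), at median distances of 5638 and 8991 bp. The iPSC peak was the nearer of the end states in 45.1% of OySyNyK-only (42.0 to 48.2) and 34.0% of OSNK-only regions (32.5 to 35.5). Regions present throughout both methods and in neither end state were 6075 in number and 2.73% of all union regions. Their iPSC values were in between, 56.4% with an iPSC peak within 10 kb and 38.0% nearer to iPSC. Their MEF share was not in between: 69.0% had a MEF peak within 10 kb, more than in either other set. No replicate exists for a test over samples, and the iPSC library was made from OySyNyK cells, as its title says, which cannot be told apart from an effect of the method.

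The difference in iPSC shares between OySyNyK-only and OSNK-only regions was present within each band of local density. The bands are wide and the neighbours counted include regions with iPSC or MEF peaks, so the part of density was not tested. Where 10 to 19 other union regions lay within 50 kb, 58.2% of 416 OySyNyK-only and 33.1% of 1543 OSNK-only regions had an iPSC peak within 10 kb, and for MEF peaks the shares were 57.7% and 53.4%. With 20 to 29 neighbours they were 74.9% and 51.5% for iPSC and 77.3% and 67.4% for MEF. With 30 or more neighbours they were 75.3% and 56.6% for iPSC and 92.5% and 82.1% for MEF. With 0 to 9 neighbours they were 27.8% and 12.7% for iPSC and 31.0% and 26.8% for MEF. The iPSC peak was the nearer in 45.2% and 28.3% with 0 to 9 neighbours and in 48.3% and 34.6% with 10 to 19. With 20 to 29 this was 45.7% and 40.7%, and with 30 or more 28.0% and 26.8%, so the order of nearness was alike there. By chromosome, the iPSC share was higher for OySyNyK-only regions on 19 of 20, and on chromosome X, with 3 such regions, no region of either set was near an iPSC peak. The MEF share was likewise higher for OySyNyK-only regions on 19 of 20 chromosomes. Among OySyNyK-only regions the iPSC share was 33.9% on chromosome 13 and 36.8% on chromosome 6, and 77.8% on chromosomes 12 and 19. With a score of at least 100 in all lists the iPSC shares were 30.5% of 400 OySyNyK-only and 13.1% of 1644 OSNK-only regions, and the iPSC peak was the nearer in 30.0% and 16.4%. With equal numbers of peaks they were 63.3% and 38.2%, and 47.3% and 35.8%. From the lowest to the highest density band, regions of both methods in neither end state had iPSC shares of 22.5%, 49.2%, 63.8% and 69.3%. All lay between those of the other sets. The iPSC peak was the nearer in 36.9%, 43.1%, 37.7% and 29.1% of them. This was below both other sets with 20 to 29 neighbours and above both with 30 or more.

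**Figure D4:**
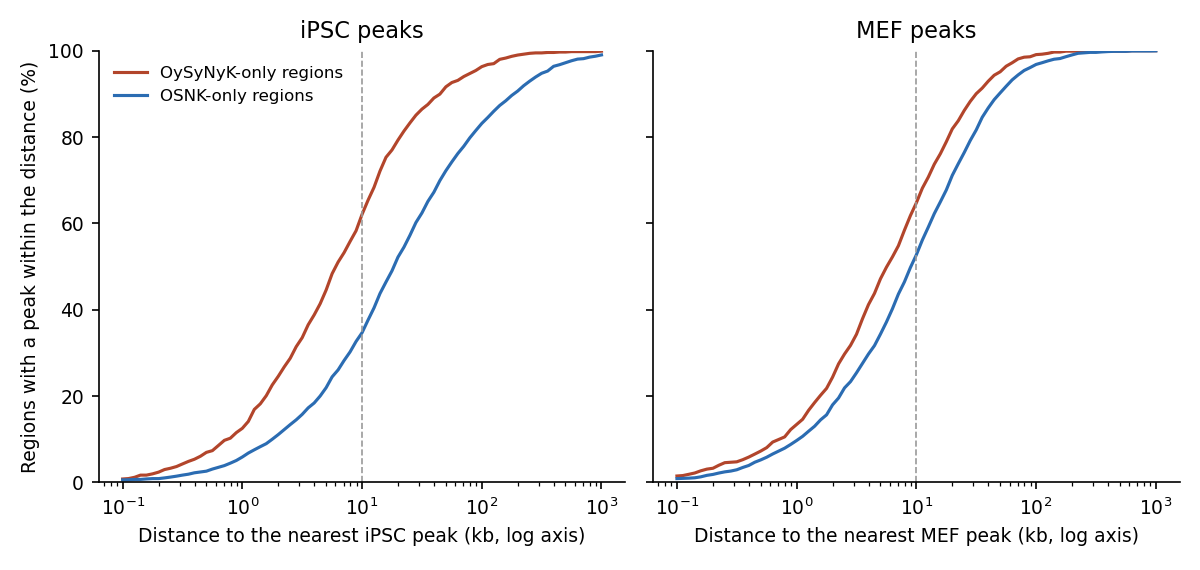
Share of OySyNyK-only (red, n = 1005) and OSNK-only regions (blue, n = 3717) with an iPSC peak (left) or a MEF peak (right) within the distance on the log axis. The dashed line marks 10 kb, where the shares are 62.1% and 34.7% for iPSC and 64.8% and 52.7% for MEF.

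The union regions directly beside the members showed the same leaning. They can hold the nearest iPSC, MEF and OSNK peaks already counted above, so they are not a separate observation. Of the 2010 flanking regions, 24.5% held an OySyNyK and no OSNK peak and 14.3% an OSNK and no OySyNyK peak, against 17.1% and 24.1% round all union regions. An iPSC and no MEF peak was found in 21.5%, against 12.1% beside OSNK-only regions and 18.4% round all. Flanks of OSNK-only regions leaned the other way, with 11.9% holding OySyNyK without OSNK and 38.5% OSNK without OySyNyK.

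The OySyNyK-only regions were scattered. The next such region was a median of 416773 bp away, and 230 regions (22.9%, 95% interval 20.3 to 25.6) had another within 100 kb. OSNK-only regions, being more numerous, had a median of 104615 bp and 48.6% within 100 kb. In windows of 100 kb, 852 windows held 1 member, 72 held 2 and 3 held 3. Of these 927 windows, 142 (15.3%) also held an OSNK-only region. Among all 19683 windows with any union region, 3094 held an OSNK-only region, a similar share. Among the regions directly beside members, 20 of 2010 (0.995%) were members too, against 0.451% of all union regions. They formed 10 adjacent pairs, with 185 to 10396 bp between the partners. The closest pair was chr9:14010336-14011093 and chr9:14011279-14012175, and the second of these is among the 25 strong regions.

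The 13 members in the 5 richest windows all had a score under 100 on at least 1 day. Of all 1005 members, only 25 (2.49%) reached 100 on every day. The highest scores of the 13 were 141, at D5 in chr12:4864177-4866013, and 133, at D3 in chr7:35269879-35270683. The window chr13:51300001-51400000 held 3 members among 25 union regions, with D1 scores of 51.3, 124 and 58.0, D3 scores of 87.7, 97.5 and 107, and D5 scores of 66.6, 58.1 and 55.3. It had 16, 15 and 16 OySyNyK peaks at D1, D3 and D5, against 12, 6 and 7 OSNK peaks, and 2 peaks in iPSC against 12 in MEF. The window chr4:150000001-150100000 held 3 members among 26 union regions, and chr15:27700001-27800000 held 3 among 32, with 31, 33 and 26 OySyNyK and 31, 26 and 25 OSNK peaks. Among windows with 2 members, the highest shares were in chr7:35200001-35300000, where 2 of 5 union regions were members, and chr12:4800001-4900000, where 2 of 8 were. No OSNK-only region lay in any of these 5 windows, but only 15.3% of all windows with a member held one.

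Chromosomes differed moderately in their yield of OySyNyK-only regions. For every 100 union regions there were 0.577 members on chromosome 11 (95% interval 0.461 to 0.714), 0.576 on chromosome 5 (0.459 to 0.713) and 0.560 on chromosome 4 (0.444 to 0.696). The lowest autosome was chromosome 12, with 27 members or 0.249 per 100 (0.164 to 0.362), and the next was chromosome 16 with 23 or 0.297 (0.188 to 0.445). Chromosome X had 3 members among 1804 union regions, and only 78 regions there were present on all 3 OySyNyK days. Counted against the regions of all 3 OySyNyK days, chromosome 12 had 1.87 members per 100 and chromosome 13 had 3.59. OSNK-only regions followed another order: they were densest on chromosome 13, with 2.27 per 100 union regions, and sparse on chromosome 11, with 1.22. There were 2.11 OSNK-only regions for each OySyNyK-only region on chromosome 11 and 6.83 on chromosome 16.

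**Figure D5:**
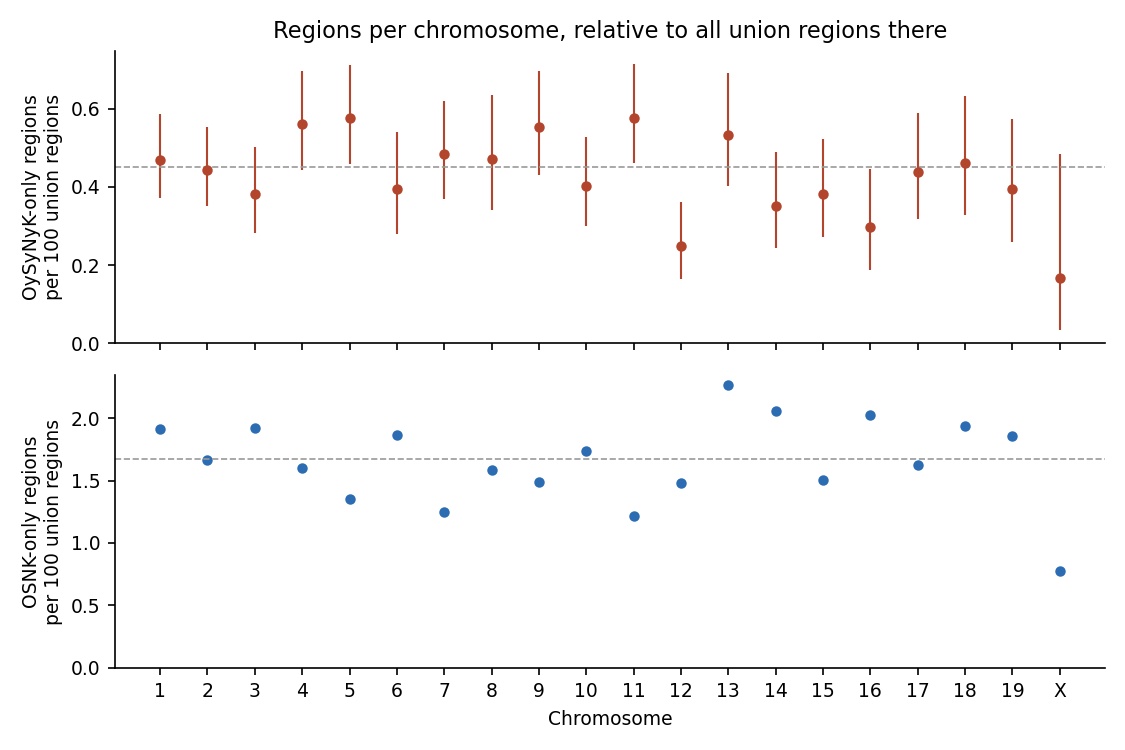
OySyNyK-only regions (top, red, with exact 95% binomial intervals) and OSNK-only regions (bottom, blue) per 100 union regions on each chromosome. Dashed lines mark the values over all chromosomes, 0.451 and 1.67. Chromosomes 12 and 16 lie below the red line with intervals of 0.164 to 0.362 and 0.188 to 0.445.

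Along the chromosomes, the share of OySyNyK-only regions was above that of all union regions in the most distal stretches, at the high-coordinate end away from the centromere in mouse. Position was measured against the last peak of each chromosome. The stretch from 80 to 90 percent of the length held 162 members (16.1%), against 12.6% of all union regions and 10.4% of OSNK-only regions. The stretch from 90 to 100 percent held 160 (15.9%), against 14.4% and 10.6%. From 60 to 70 and from 70 to 80 percent the members, with 10.1% and 9.15%, were below all union regions, with 11.1% and 10.3%. The last 10 Mb of the chromosomes held 11.4% of the members, 7.48% of OSNK-only regions, 11.4% of the regions of both methods in neither end state and 10.7% of all union regions.

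Many OySyNyK-only regions stood close to the limits of the rule. The lowest of the 3 scores was under 60 in 551 of the 1005 (54.8%) and under 51 in 82 (8.16%). Just inside were chr3:28017980-28018858, with a D5 score of 50.04, and chr1:173290136-173291009 and chr4:11704622-11705142, with 50.05 each. By distance, chr12:86763938-86764737 escaped overlap by 1 bp from a MEF peak, chr10:66530826-66531512 by 2 bp from a MEF peak, and chr9:45878734-45880071 by 3 bp from an OSNK D3 peak. In all, 8 regions had a peak of an absent list within 10 bp.

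On the other side, 2112 regions present on all 3 OySyNyK days were kept out by 1 list alone. That list was OSNK D5 for 737, iPSC for 455, OSNK D1 for 427, OSNK D3 for 296 and MEF for 197. The median score there was 71.3, 80.3, 78.0, 65.8 and 73.4 in the same order of lists. In 64 of them the score was under 51. Nearest to the limit were chr9:14159199-14160016, kept out by an iPSC score of 50.01, and chr18:84277680-84278881, kept out by an OSNK D5 score of 50.01. The 3 after these were chr17:9064756-9066417 with 50.03 in OSNK D1, chr4:118900232-118901581 with 50.06 in iPSC, and chr5:36169438-36170273 with 50.06 in MEF. Without the OSNK D5 list the rule would have given 1742 regions.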

How the data were processed

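5hmC was captured chemically from sonicated DNA of 8 mouse samples, per the labels' protocols, and each library has a peak list. The tools, per the submitters' processing notes, were Bowtie and MACS, with versions, settings and control not given in the sources used here. The score in the fifth column is as deposited by the authors and was not rescaled. It depends on depth, which is unknown, and the lowest value of 50 corresponds on the MACS scale to a p-value of 1e-05. The builds in the notes, hg18 and NCBI36, are human; on 10 of 20 chromosomes peaks lay beyond the last GRCm38 gene, so mouse gene and promoter tables of GRCm38 were not used.

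Union regions, presence (at least 1 bp), distances between region edges and scores (the highest peak per list) were computed in Python (3.11.15) using pandas 2.3.3, numpy 2.4.6, scipy 1.17.1 and, for figures, matplotlib 3.10.9. The steps were tested on simulated data and against bedtools 2.31.1. With 1 library per group no p-value is given. Named regions are the 10 with the largest lowest score, the 5 longest on all days, the 5 richest 100-kb windows, the 5 largest rises and falls from D1 to D5 among regions scoring at least 100 on the higher day, and those nearest the limits of the rule; others were named after seeing values. The members and lists were chosen with earlier results of these data known. Planned gene lists and gene positions were left out for want of an annotation. Distances to iPSC and MEF peaks were chosen after seeing the data.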

Additional observations from a re-analysis of the deposited data

Results flagged for a closer look

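The median change of score from D1 to D3 was positive in OySyNyK-only regions and very slightly negative in OSNK-only regions. The score was higher at D3 in 62.3% of the former and 48.5% of the latter. The median log2 ratio was 0.18 in OySyNyK-only regions and -0.02 in OSNK-only regions, a difference of 0.198. The difference was not tested, since each method has 1 library per day. Over all regions present on the 3 days of a method the medians were -0.19 with OySyNyK and -0.34 with OSNK, and median scores of the whole lists changed by -0.19 with either method.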

How the results depend on the processing

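Depth, list length and the score limit bound these results: absence means no peak above a score of 50. The number of OySyNyK-only regions, 1005, was 400 with a score of 100 or more in all lists, 594 with equal numbers of peaks, 654 with peaks within 1 kb merged, 609 with no absent-list peak within 1 kb and 25 with a score of 100 or more on the 3 days. It was 1742 without OSNK D5 as an absent list, 3567 without requiring OySyNyK D1 and 2769 without requiring OySyNyK D5. It stayed within 1.5 times with the other absent lists left out in turn (1202 to 1460), without requiring OySyNyK D3 (1483), and in the other settings. OSNK-only regions, 3717, were 1644, 1509 and 350 with a score of 100 or more in all lists, equal numbers and a score of 100 or more on the 3 days. They outnumbered OySyNyK-only regions in all 9 settings that gave both, 2.54 to 14.0 times. With a score of 100 or more in all lists, the median width was 1124.5 bp, the D5 to D1 median -0.058, the share with another member within 100 kb 12.3%, that with an OSNK peak within 1 kb 20.8%, and that with an iPSC peak within 10 kb 30.5% (OSNK-only 13.1%), with iPSC nearer in 30.0% (16.4%). With equal numbers these were 916 bp, -0.54, 18.4%, 19.2%, 63.3% (38.2%) and 47.3% (35.8%). With a score of 100 or more on the 3 days they were 1143 bp, -0.18, 0% (0 of 25 regions), 24.0%, 72.0% (34.9%) and 52.0% (35.4%). Peaks of 500 bp gave 607 bp and 26.6% within 100 kb. Merging within 1 kb gave 865.5 bp, 11.2%, an OSNK share of 0% by construction, and iPSC shares of 51.8% and 27.7%. With no absent-list peak within 1 kb, 11.5% had another member within 100 kb and the iPSC shares were 53.0% and 27.9%. Asking each day to cover at least 50% of the region gave 769 bp. Without chromosomes 12, 13, 16, 18 and X, a setting added after seeing the data, OSNK-only regions had 37.0% with an iPSC peak within 10 kb and 35.5% nearer iPSC. In all 9 settings both iPSC shares were higher for OySyNyK-only than for OSNK-only regions. The causes of these shifts were not tested. No paired analysis was possible because no result here comes from a test: the regions were chosen by the peak calls of all days, and the replicate numbers only name the 1 library of each group.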

Other observations

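A stretch of chromosome 5 came up under several criteria, seen only after the values were known. Besides chr5:36275394-36276338, the strongest member, and chr5:36006418-36008102, the member with the longest stretch on all 3 days, it holds chr5:35996342-35997358, with scores of 91.3, 73.6 and 99.1 at D1, D3 and D5. The region chr5:36169438-36170273 between them had scores of 118, 89.3 and 62.5 and was kept out by a MEF score of 50.06.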
